A study of Mus musculus with 16 samples.

Results

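Skeletal muscle of mice fed a high-fat diet (HFD) and treated with metformin (HFD + MET group, 4 mice) was compared with that of mice on a normal diet (control group, 4 mice), which shows how far metformin-treated muscle differed from the muscle of normally fed mice. These are 8 of the 16 mice sequenced, chosen by their treatment labels, and each mouse gave 1 library. All mice were C57BL/6J males bought at 6 weeks of age. The control group ate a normal diet. The HFD + MET group ate an HFD with 60% fat, 20% protein, and 20% carbohydrate for 8 weeks and then received metformin for 6 weeks while staying on the HFD. The HFD group, 4 mice on the same diet without a drug, is given beside them as a reference. The comparison of HFD + MET with control holds the diet and the drug together, and none of the groups received metformin on the normal diet. The dose of metformin, the muscle taken, and the hour of collection were not given in the sources used here. In the groups that the paper describes, 6 mice per group received insulin 20 min before anaesthesia. The paper does not state whether the sequenced mice were among them, and it does not describe the metformin group. The part of insulin injection in the values was not tested.

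Metformin is the usual first drug for type 2 diabetes. It inhibits complex I of the mitochondrial respiratory chain, activates the energy sensor AMPK, and lowers glucose output by the liver, while skeletal muscle is the largest site of insulin-stimulated glucose uptake. A diet rich in fat and poor in carbohydrate lowers the need to make fatty acids from sugar, which takes place mainly in liver and fat tissue and less in muscle. Bulk muscle RNA also contains RNA from fat cells, blood, vessels, and nerve that lie between the fibres, and fewer cells of a type cannot be told apart from less RNA per cell.

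RNA depleted of ribosomal RNA was counted per transcript in a table of 82388 mRNA transcripts, which were summed into 23235 gene names, and a table of 58245 lncRNAs. The 2 tables together held between 20962328 and 34021101 counts for a control mouse and between 20281801 and 33737422 for an HFD + MET mouse. Levels are given as CPM, counts scaled to a common total of each table and corrected between libraries. The 12 muscle fibre markers summed to between 175000 and 312000 CPM in the 8 mice, and the retina markers, 7 of which are in the table, listed because a label of the RNA extraction names retinas, summed to at most 1.99 CPM.

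The libraries differed in their level of fat cell markers, within as well as between the groups. The 12 white adipocyte markers, which include the hormone genes Adipoq and Lep and the lipid droplet gene Plin1, summed to 2350, 1820, 7850, and 3060 CPM in control mice 1 to 4 and to 3150, 804, 6630, and 728 CPM in HFD + MET mice 1 to 4. Control mouse 3 and HFD + MET mouse 3 were highest, and the groups overlapped. The HFD mice were between 605 and 1520 CPM. The slow fibre genes also differed widely between mice. Their sum was 438 CPM in control mouse 1 and 1770 to 4670 CPM in the other control mice, against 564 to 1950 CPM in the HFD + MET mice. HFD + MET mouse 3 also had the lowest sum of fast fibre genes in its group, 75500 CPM, and the highest sum of erythroid genes, 1450 CPM.

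**Figure D1:**
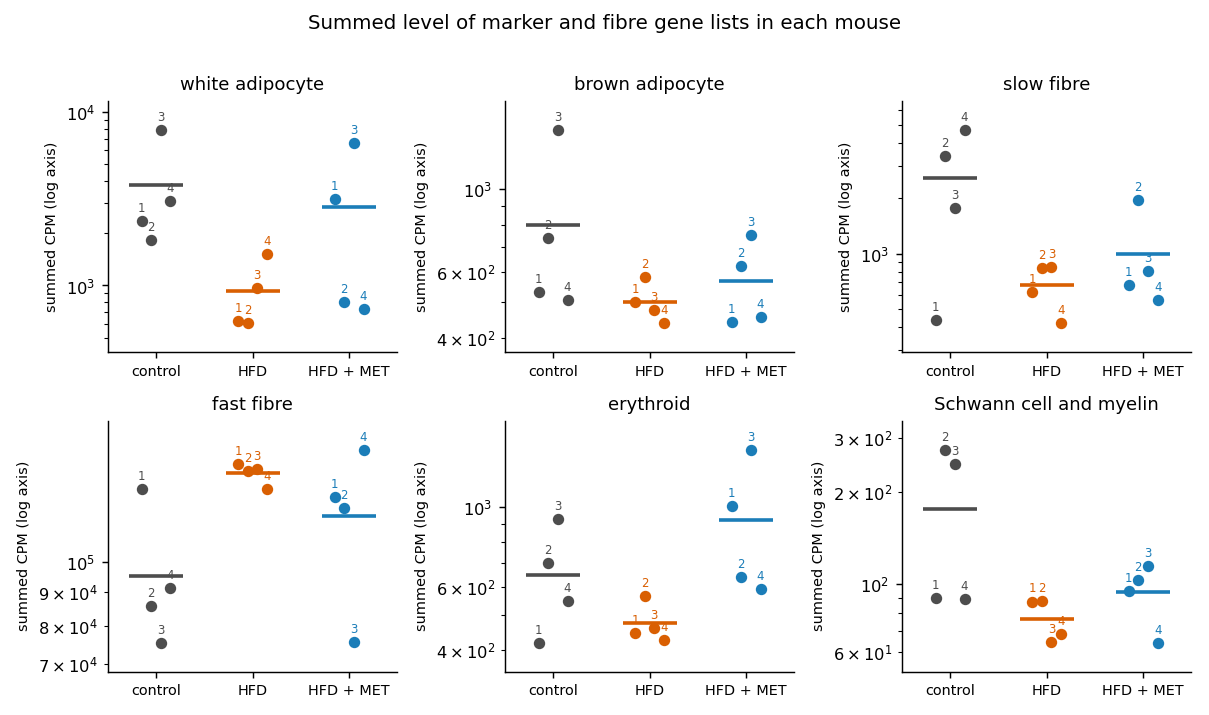
Summed CPM (log axis) of 6 gene lists in each mouse of the control, HFD, and HFD + MET groups. Points are mice, numbered within their group, and lines are group means. Control mouse 3 and HFD + MET mouse 3 have the highest white adipocyte sums, 7850 and 6630 CPM.

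Differential expression was tested with edgeR's quasi-likelihood test in 15364 genes and 17599 lncRNAs. With all 4 mice in each group, 0 genes passed a Benjamini-Hochberg adjusted P < 0.05 (0% of the genes tested), and the smallest adjusted P was 0.0616. At an unadjusted P < 0.05, 821 genes were higher (5.34%) and 638 were lower (4.15%) in the HFD + MET group, 9.5% of all genes. The study screened features by a P-value cutoff and a log2FC beyond 1 in either direction. The paper links its P-value cutoff to control of the false discovery rate. Here the cutoff was applied to the unadjusted P, and this use is called the criteria of the study throughout. With these criteria, at an unadjusted P < 0.05, 65 genes were higher (0.423%) and 185 were lower (1.2%), 1.63% in all. DESeq2 called 146 genes at an adjusted P < 0.05. With HFD + MET mouse 3 left out, edgeR called 180 genes, 96 higher and 84 lower, of which 66 were among the 146. In the same edgeR model the HFD group differed from the control group by 203 higher (1.32%) and 171 lower genes (1.11%) at an adjusted P < 0.05, and the HFD + MET group differed from the HFD group by 1 higher gene, Oasl2, and 1 lower gene, Nr4a3 (0.00651% each). At an unadjusted P < 0.05, these 2 comparisons called 11.7% and 5.23% of all genes higher and 12.5% and 2.79% lower. These 3 comparisons share mice. Genes below are called higher or lower at an unadjusted P < 0.05 unless stated otherwise. Counts of list members for HFD + MET against control with all mice are to be read against the 9.5% of all genes. Counts for the other 2 comparisons are to be read against their own shares above. For fits that leave out a mouse or use another setting, the share of all genes at this threshold is not given. Without HFD + MET mouse 3, the genes that met the criteria of the study went from 250 to 541. A larger count of list members in that fit is therefore not by itself a result about the list.

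Of the genes with the smallest adjusted P, Hsd11b1, which codes for the enzyme that regenerates active glucocorticoid from its inactive form, was measured at 30.6, 19.9, 42.2, and 18.2 CPM in the control mice and at 11.6, 7.19, 12.0, and 9.85 CPM in the HFD + MET mice. Every HFD + MET mouse was below every control mouse, with a log2FC of -1.45 ± 0.24 (SE). Groups did not overlap in 542 genes (3.53% of those tested). Plxnd1, a receptor for semaphorins in vessels, was higher with a log2FC of 0.49 ± 0.081, from 58.1 to 63.4 CPM in the control mice to 76.6 to 101 CPM. Dok4, an adaptor of receptor tyrosine kinases, was at 4.38 to 5.46 CPM in the control mice and 7.01 to 11.1 CPM in the HFD + MET mice. The pseudogene Ifi203-ps of the interferon-inducible Ifi200 family was at 1.40 to 1.51 CPM and 3.02 to 4.52 CPM, and 6430571L13Rik was at 9.01 to 15.7 CPM and 20.8 to 36.2 CPM. In each of these genes the groups did not overlap, and the adjusted P of edgeR was 0.0616. Under the other settings tried, their adjusted P ranged from 2.95e-06 to 0.518.

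Of 24 genes of fatty acid synthesis tested, 12 were lower and 1 was higher, and the median log2FC of the list was -0.74 against 0.0087 for all genes. Fasn, the fatty acid synthase, was measured at 2400, 2697, 6471, and 454 CPM in the control mice and at 125, 33.4, 348, and 51.5 CPM in the HFD + MET mice. The highest HFD + MET mouse, mouse 3, was below the lowest control mouse, with a log2FC of -4.43 ± 0.83. The levels of Elovl6, which elongates the product of Fasn, were 83.5, 91.3, 229, and 10.7 CPM in the control mice and 1.93, 1.61, 17.9, and 1.73 CPM in the HFD + MET mice. HFD + MET mouse 3 stood above the other 3 mice and overlapped with control mouse 4, and the log2FC was -4.16 ± 0.91.

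The enzymes that supply Fasn were lower too. Acly, which makes cytosolic acetyl-CoA from citrate, was at 161, 189, 249, and 39.0 CPM in the control mice and 35.4, 24.1, 53.4, and 24.7 CPM in the HFD + MET mice, with a log2FC of -2.22 ± 0.41. Acaca, the acetyl-CoA carboxylase that makes malonyl-CoA, was at 284, 278, 526, and 98.4 CPM and at 57.6, 23.8, 135, and 29.7 CPM, with a log2FC of -2.27 ± 0.52. In both genes, HFD + MET mouse 3 was the only mouse above control mouse 4. Slc25a1, the mitochondrial citrate carrier, had a log2FC of -2.26 ± 0.63 and Scd1, the desaturase of stearoyl-CoA, a log2FC of -2.35 ± 0.94, both without overlap between the groups. Acacb, the mitochondrial isoform of the carboxylase that is abundant in muscle, was lower by a smaller amount, with a log2FC of -0.32 ± 0.14. Srebf1, which codes for the transcription factor SREBP1 that drives this pathway, was the 1 member that was higher, with 63.9 to 109 CPM in the control mice and 93.2 to 142 CPM in the HFD + MET mice (log2FC 0.44 ± 0.20). Mlxipl, the carbohydrate response factor ChREBP, had a log2FC of 0.02.

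**Figure D2:**
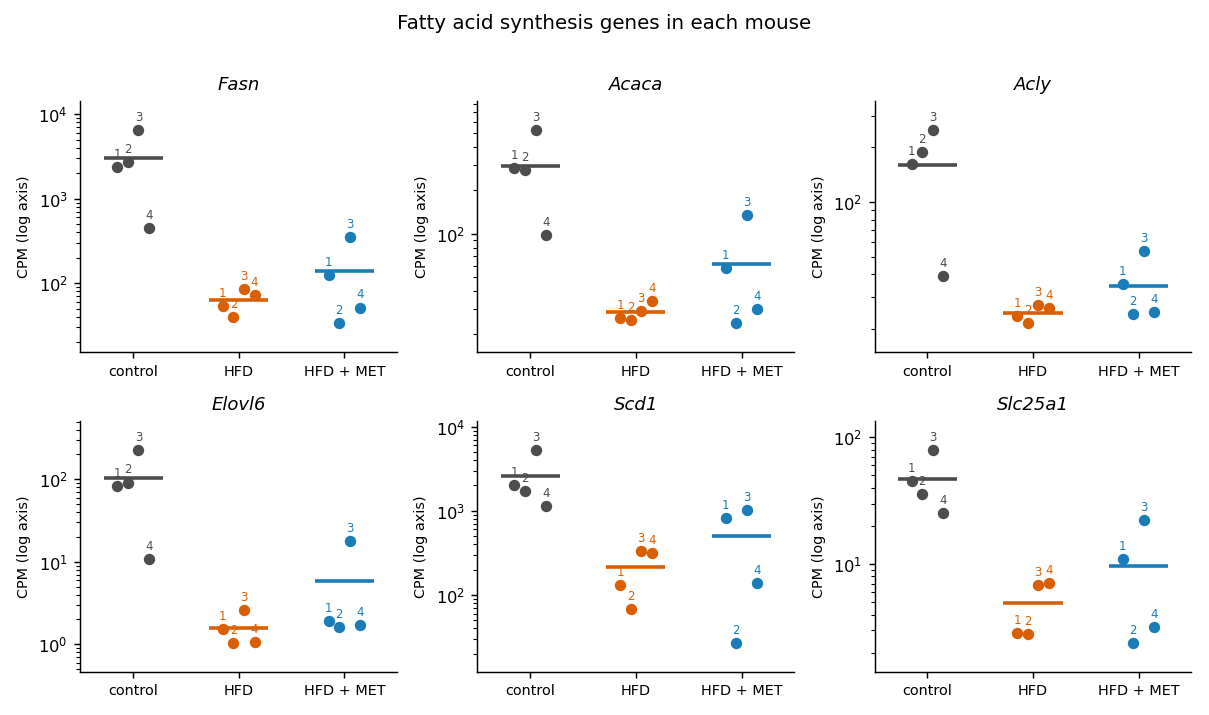
CPM (log axis) of 6 genes of fatty acid synthesis in each mouse of the control, HFD, and HFD + MET groups. Points are mice, numbered within their group, and lines are group means. Fasn is at 454 CPM or more in the control mice and at 348 CPM or less in the HFD + MET mice.

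Fat tissue expresses this pathway strongly, and the adipocyte markers differed between the libraries. Adipoq, an adipocyte hormone, was at 104, 69.8, 352, and 142 CPM in the control mice and at 182, 3.67, 355, and 23.5 CPM in the HFD + MET mice (log2FC -0.25 ± 1.02). The groups overlapped over most of their range, and the part of fat cells in the values of the lipogenic genes was not tested. No white adipocyte marker was called, and the median log2FC of the 12 markers was -0.31. Of 10 brown adipocyte markers, 1 was lower and 9 had a negative log2FC, with a median of -0.96. The brown markers summed to 506 to 1440 CPM in the control mice and 443 to 755 CPM in the HFD + MET mice. Without HFD + MET mouse 3, 17 lipogenic genes were lower and 0 were higher, and Fasn, Acaca, Acly, Elovl6, Elovl5, and Slc25a1 passed an adjusted P < 0.05 in edgeR. Without mouse 3 of both groups, 15 were lower and 1 was higher, and the log2FC of Fasn was -4.73, with an adjusted P of 0.0307 in edgeR and a range from 6.17e-06 to 0.534 over the settings tried. In these 2 settings, 3 and 1 white adipocyte markers were lower, and 6 brown adipocyte markers were lower in each. Cidea, which is in both the white and the brown adipocyte list, also passed an adjusted P < 0.05 in edgeR without HFD + MET mouse 3 (log2FC -5.49, adjusted P = 0.0429). Without mouse 3 of both groups its log2FC was -4.25, with an adjusted P of 0.0803 in edgeR. Without HFD + MET mouse 1, 8 lipogenic genes were lower and 0 higher, and without HFD + MET mouse 4, 7 were lower and 1 was higher. In the HFD mice without a drug, Fasn was between 39.2 and 84.1 CPM, and its log2FC was -5.59 against the control group and 1.16 for HFD + MET against HFD (adjusted P = 0.676 in edgeR).

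Of 25 genes of cholesterol synthesis and uptake tested, 4 were lower and 0 were higher. Without HFD + MET mouse 3, 9 were lower, and without control mouse 4, 7 were. Sqle, the squalene epoxidase, was at 2.08, 1.74, 3.28, and 1.87 CPM in the control mice and 0.880, 0.936, 0.845, and 0.647 CPM in the HFD + MET mice. The groups did not overlap, with a log2FC of -1.44 ± 0.30. Pmvk, Fdft1, and Cyp51 of the same pathway were lower with a log2FC of -0.87, -0.55, and -0.52.

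Circadian clock genes differed in both directions. The clock is a loop in which Arntl (BMAL1) pairs with Clock or Npas2 and switches on the Per, Cry, Nr1d, and Dbp genes, whose products act back on the loop. Of 21 genes tested, 8 were higher and 4 were lower, 57.1% of the list. On the activating side, Npas2 was measured at 4.33, 7.50, 5.47, and 3.28 CPM in the control mice and at 1.54, 1.39, 1.61, and 0.826 CPM in the HFD + MET mice, and Arntl at 46.3, 47.7, 30.0, and 29.1 CPM and at 16.7, 21.2, 20.7, and 18.5 CPM. All HFD + MET mice were below all control mice in both, with a log2FC of -1.95 ± 0.33 and -0.99 ± 0.22. Nfil3, which represses the targets of Dbp, was lower without overlap as well, from 30.0 to 37.2 CPM in the control mice to 14.1 to 22.6 CPM (log2FC -0.86 ± 0.18). Clock itself had a log2FC of -0.29 (adjusted P = 0.677 in edgeR).

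On the output and repressor side, Dbp, an activator of output genes, was at 21.9, 8.94, 14.6, and 22.0 CPM in the control mice and at 84.5, 64.5, 34.6, and 73.6 CPM in the HFD + MET mice. The groups did not overlap, and the log2FC was 1.94 ± 0.39, the largest of the 8 higher genes. Per3 was higher without overlap, from 25.1 to 41.7 CPM to 54.3 to 69.7 CPM (log2FC 0.71 ± 0.17). Per2, Nr1d2, Tef, Hlf, Bhlhe41, and Ciart were higher with a log2FC between 0.42 and 1.10. Cry1, Cry2, Per1, and Nr1d1 were not called, with a log2FC of 0.08, 0.21, 0.12, and 0.04. When HFD + MET mouse 3 was left out, 11 clock genes were higher and 4 lower, and Npas2, Nfil3, Dbp, Nr1d2, and Bhlhe41 passed an adjusted P < 0.05 in edgeR. The adjusted P of Npas2 ranged from 2.05e-05 to 0.312 over the settings tried, and that of Dbp from 0.000209 to 0.356.

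**Figure D3:**
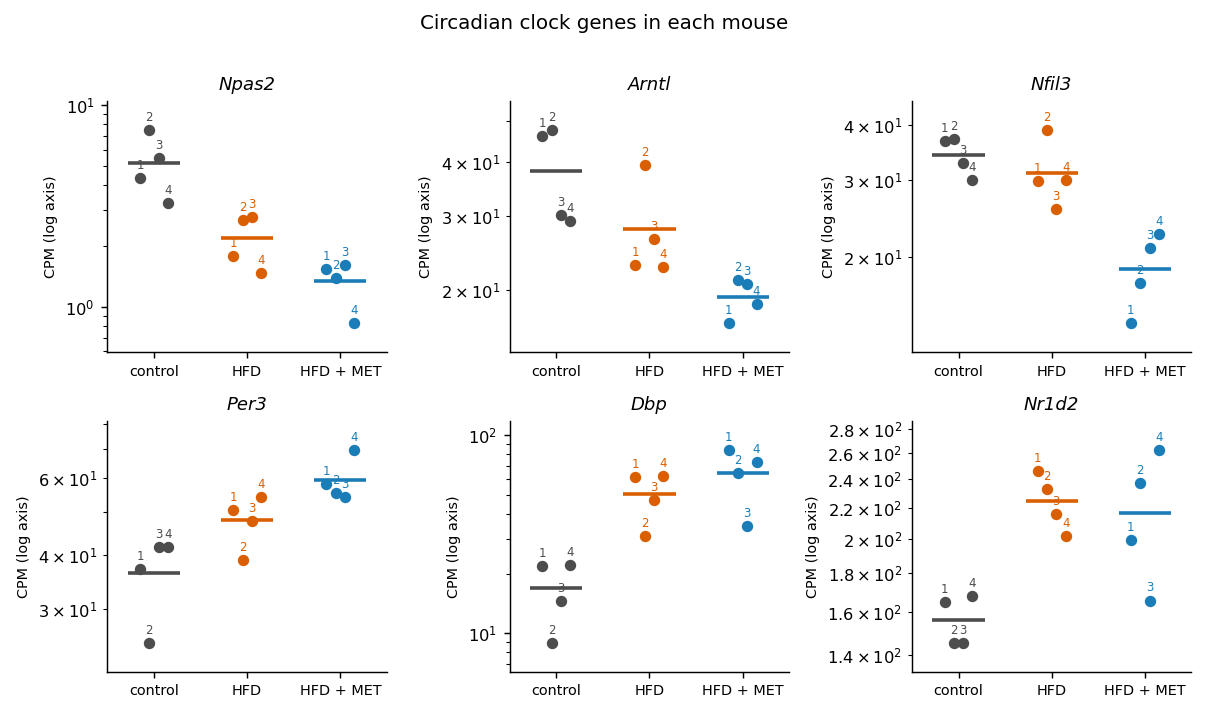
CPM (log axis) of 6 circadian clock genes in each mouse of the control, HFD, and HFD + MET groups. Points are mice, numbered within their group, and lines are group means. Npas2, Arntl, and Nfil3 are lower and Per3 and Dbp higher in all HFD + MET mice than in all control mice.

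In the HFD mice without a drug, which share the control mice of this comparison, Dbp was between 31.0 and 62.4 CPM, Npas2 between 1.47 and 2.78 CPM, and Nfil3 between 25.8 and 39.0 CPM. Nfil3 had a log2FC of -0.13 for HFD against control and of -0.73 ± 0.18 for HFD + MET against HFD (adjusted P = 0.490 in edgeR). Npas2 had a log2FC of -1.24 for HFD against control and of -0.71 for HFD + MET against HFD (adjusted P = 0.618 in edgeR).

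The clock proteins bind short DNA motifs, and the promoters of Ciart, Per3, and Nfil3 are shown as examples that hold one. In the 250 bases before the start of each RefSeq gene (build GRCm38.p6), both strands were searched for the E-box CACGTG bound by BMAL1 with its partners, the D-box TTANGTAA bound by Dbp, Tef, Hlf, and Nfil3, and the RORE TAGGTCA bound by the Nr1d and Ror receptors. An E-box was found for 6.86% of 27025 genes and for 5 of the 18 clock genes with a promoter in the table (Per1, Cry1, Tef, Bhlhe41, and Ciart). A D-box was found for 2.44% of all genes and for Per3 and Rorb, and a RORE for 2.55% of all genes and for Nfil3. None of these motifs was found before Dbp, Npas2, Arntl, or Nr1d2. In the promoters below, written 5′ to 3′ on the strand of the gene, capitals mark the motifs. Ciart holds 3 E-boxes, which start 116, 58, and 44 bases before the gene (chr3:95882229-95882478, minus strand). Per3 holds 2 D-boxes, 205 and 158 bases before the gene (chr4:151044666-151044915, minus strand). Nfil3 holds 1 RORE on the opposite strand, 12 bases before the gene (chr13:52981040-52981289, minus strand). A match is a description of the letters and was not tested as a binding site.
Ciart: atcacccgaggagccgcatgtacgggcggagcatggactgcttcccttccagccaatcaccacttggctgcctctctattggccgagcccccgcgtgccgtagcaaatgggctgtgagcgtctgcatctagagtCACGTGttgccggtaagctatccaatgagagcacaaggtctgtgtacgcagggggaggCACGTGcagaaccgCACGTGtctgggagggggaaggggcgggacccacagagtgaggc
Per3: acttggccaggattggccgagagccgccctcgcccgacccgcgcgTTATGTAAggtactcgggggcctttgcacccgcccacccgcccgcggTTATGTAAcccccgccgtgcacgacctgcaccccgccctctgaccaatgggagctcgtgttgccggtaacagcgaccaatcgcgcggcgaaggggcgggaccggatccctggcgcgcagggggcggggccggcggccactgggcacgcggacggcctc
Nfil3: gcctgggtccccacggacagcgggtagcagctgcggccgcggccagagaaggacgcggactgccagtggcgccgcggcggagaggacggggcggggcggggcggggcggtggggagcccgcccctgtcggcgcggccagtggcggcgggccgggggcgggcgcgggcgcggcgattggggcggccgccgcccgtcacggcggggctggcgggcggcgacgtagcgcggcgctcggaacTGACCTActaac

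Immediate early genes are transcribed within minutes of a stimulus such as contraction, stretch, or handling. Of 21 genes tested, 13 were lower and 0 were higher, 61.9% of the list, with a median log2FC of -0.83. In 10 genes the groups did not overlap. Fos was measured at 41.1, 34.4, 31.6, and 19.6 CPM in the control mice and at 9.41, 10.7, 13.5, and 15.4 CPM in the HFD + MET mice (log2FC -1.37 ± 0.39), and its partner Junb at 17.3 to 32.8 CPM and 8.28 to 12.5 CPM (log2FC -1.19 ± 0.34). All HFD + MET mice were below all control mice in both. Btg2, an antiproliferative early gene, was at 77.0, 98.5, 75.0, and 97.0 CPM and at 22.3, 29.8, 45.0, and 30.5 CPM, again without overlap (log2FC -1.44 ± 0.28). Fosb, Fosl2, Jun, Jund, and Egr2 were the other members of the Fos, Jun, and Egr families that were lower, with a log2FC between -2.10 and -0.33. Egr1 had a log2FC of -1.20 with an SE of 0.61 (adjusted P = 0.573 in edgeR), and Myc of -0.09.

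The Nr4a genes code for orphan nuclear receptors that respond to exercise and to adrenergic signals in muscle. Nr4a3 was at 10.7, 6.24, 10.1, and 6.66 CPM in the control mice and at 2.86, 2.88, 2.83, and 2.48 CPM in the HFD + MET mice. The HFD + MET mice were close to each other and all below the control mice (log2FC -1.61 ± 0.38). The HFD mice were between 8.50 and 35.2 CPM, so that Nr4a3 fell by 3.02 on the log2 scale in HFD + MET against HFD, with an adjusted P of 0.0133 in edgeR. Over the whole list, HFD against control gave 2 higher and 11 lower genes with a median log2FC of -0.57, and HFD + MET against HFD gave 0 higher and 3 lower genes with a median of -0.09. Nr4a2 was at 6.24 to 11.1 CPM in the control mice and 1.58 to 2.79 CPM in the HFD + MET mice (log2FC -2.03 ± 0.56), while Nr4a1 had a log2FC of -0.10. The count of lower early genes was 13 without HFD + MET mouse 3 and 11 without mouse 3 of both groups.

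Interferon-stimulated genes are switched on together by type I interferon through a complex of STAT proteins and IRF9. Of 25 genes tested, 9 were higher and 0 were lower, and all 25 had a positive log2FC, with a median of 0.44. Oasl2, a member of the 2′-5′ oligoadenylate synthetase family, was measured at 5.34, 4.83, 4.46, and 4.00 CPM in the control mice and at 6.49, 7.004, 8.83, and 6.503 CPM in the HFD + MET mice. Bst2, which tethers virus particles to the cell, was at 4.10, 4.86, 5.36, and 4.58 CPM and at 7.04, 6.52, 9.46, and 6.503 CPM. Xaf1 was at 3.20, 4.31, 4.18, and 2.03 CPM and at 5.83, 6.03, 9.25, and 5.21 CPM. The groups did not overlap in these genes or in Ifi44, and HFD + MET mouse 3 was the highest mouse in Oasl2, Bst2, and Xaf1. The log2FC was 0.63 ± 0.13, 0.64 ± 0.15, and 0.93 ± 0.22.

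In other members HFD + MET mouse 3 stood far above the rest of its group. Mx1, an antiviral GTPase, was at 0.605, 0.337, 2.79, and 0.467 CPM in the HFD + MET mice and at 0.312 to 0.586 CPM in the control mice. Ifit3 was at 4.40, 5.17, 14.95, and 6.18 CPM against 2.96 to 5.34 CPM. The list summed to 322, 180, 578, and 179 CPM in the HFD + MET mice and to 183 to 269 CPM in the control mice. HFD + MET mice 2 and 4 were thus just below all control mice in the sum, and mice 1 and 3 were above. Ifi27l2a, the member with the widest range, had 520 to 2705 counts in the control mice and 94 to 6716 in the HFD + MET mice. The sum is therefore not an even measure of the members, and all 25 had a positive log2FC. Without mouse 3, 6 genes were higher and 0 were lower. HFD + MET mouse 3 also had the highest sums of white adipocyte and erythroid markers of its group, 6630 and 1450 CPM, and the part of these cells in the result was not tested. Ptprc, the leukocyte antigen CD45, had a log2FC of -0.27, and 0 of 17 antigen presentation genes and 0 of 12 macrophage markers were called.

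In the HFD mice without a drug, the list median was -0.32 against the control group, with 0 genes higher and 6 lower. Against the HFD mice, 20 of the 25 genes were higher in the HFD + MET group and 0 were lower, with a median log2FC of 0.79. In that comparison Oasl2 rose by a log2FC of 1.05 with an adjusted P of 0.0133 in edgeR, from 3.07 to 3.81 CPM in the HFD mice. Ifit1 had a log2FC of 1.19 and Irf7, which codes for a regulator of the response, of 1.07, with an adjusted P of 0.141 and 0.398 in edgeR.

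**Figure D4:**
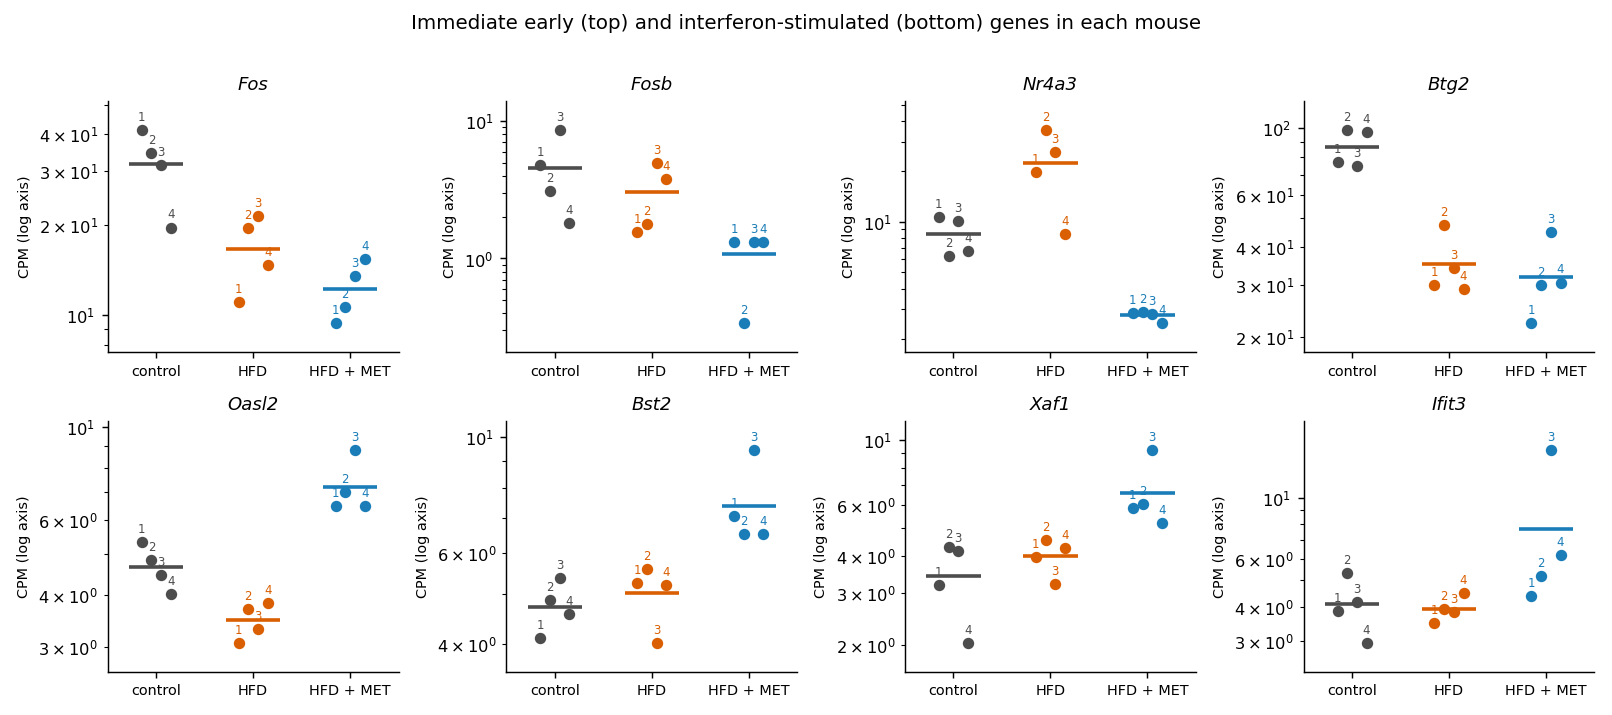
CPM (log axis) of 4 immediate early genes (top) and 4 interferon-stimulated genes (bottom) in each mouse of the control, HFD, and HFD + MET groups. Points are mice, numbered within their group, and lines are group means. Nr4a3 lies between 2.48 and 2.88 CPM in the HFD + MET mice, below the control and HFD mice, and Oasl2, Bst2, and Xaf1 lie above the control mice.

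The interferon-stimulated response element (ISRE), GAAA and GAAA with 2 bases of any kind between them, bound by this complex, was searched for in the same promoters and on both strands. It was found for 3.46% of 27025 genes and for 10 of the 18 listed interferon genes with a promoter in the table (Isg15, Ifit1, Ifit3, Oas1a, Rsad2, Stat2, Bst2, Gbp2, Gbp3, and Igtp), of which Ifit1, Ifit3, and Bst2 were higher. The promoters of Ifit1 (chr19:34640639-34640888, plus strand) and Ifit3 (chr19:34583279-34583528, plus strand) are shown because each holds 2 elements, which lie on the opposite strand and are in capitals. They start 104 and 85 bases before Ifit1 and 156 and 122 bases before Ifit3.
Ifit1: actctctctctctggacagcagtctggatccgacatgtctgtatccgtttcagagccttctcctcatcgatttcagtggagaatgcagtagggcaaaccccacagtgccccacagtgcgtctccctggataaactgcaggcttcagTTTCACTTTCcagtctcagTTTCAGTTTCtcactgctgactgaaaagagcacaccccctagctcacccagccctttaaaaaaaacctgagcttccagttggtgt
Ifit3: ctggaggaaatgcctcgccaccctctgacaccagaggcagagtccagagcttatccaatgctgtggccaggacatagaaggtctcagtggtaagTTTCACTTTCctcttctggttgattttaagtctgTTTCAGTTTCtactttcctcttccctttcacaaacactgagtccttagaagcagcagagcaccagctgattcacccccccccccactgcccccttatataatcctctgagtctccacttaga

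For the early genes and the lipogenic genes, the cAMP response element TGACGTCA and the sterol response element TCACNCCAC were searched for in the same way. The first was found for 1.77% of all genes and for Btg2 and Dusp1 among 18 early genes, and the second for 1.22% of all genes and for Mlxipl among 19 lipogenic genes.

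Of 24 genes in a list for FoxO factors and muscle atrophy, 11 were lower and 0 were higher, 45.8% of the list. The list is not limited to genes of protein breakdown and also holds, among others, Sln, Ddit4, Mt1, and Mt2. Trim63 (MuRF1) and Fbxo32 (atrogin-1) are the ubiquitin ligases that mark muscle protein for breakdown. Trim63 was measured at 934, 771, 606, and 412 CPM in the control mice and at 237, 251, 326, and 458 CPM in the HFD + MET mice. HFD + MET mouse 4 was above control mouse 4, and the log2FC was -1.10 ± 0.29. Fbxo32 was at 1384 to 2771 CPM and at 981, 1021, 1009, and 1802 CPM (log2FC -0.73 ± 0.29), with HFD + MET mouse 4 inside the control range. Ddit4 (REDD1), an inhibitor of mTORC1, was at 34.8, 100, 129, and 161 CPM and at 30.7, 26.3, 52.8, and 12.4 CPM (log2FC -1.80 ± 0.50). The count of lower genes was 5 without HFD + MET mouse 1 and 7 without HFD + MET mouse 2, control mouse 1, or control mouse 2, each left out alone. Foxo1, Foxo3, and Foxo4 were not called, with a log2FC of 0.26, -0.17, and 0.03, and myostatin (Mstn) had a log2FC of 0.12.

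Cdkn1a (p21), an inhibitor of the cell cycle that FoxO and p53 induce, differed widely within the HFD + MET group. It was at 36.5, 58.5, 59.5, and 49.5 CPM in the control mice and at 12.7, 15.6, 49.0, and 7.83 CPM in the HFD + MET mice. Mouse 3 was inside the control range and the other 3 were below it. Its log2FC was -1.26 ± 0.41 with all mice and -2.09 without mouse 3, where it passed an adjusted P < 0.05 in edgeR. The metallothionein Mt1, which binds zinc, was at 23.2 CPM in mouse 3 and at 3.92 to 6.88 CPM in the other HFD + MET mice, against 10.5 to 34.2 CPM in the control mice. Sln, an inhibitor of the calcium pump, was at 0.674 to 4.07 CPM in the control mice and 0.108 to 0.562 CPM in the HFD + MET mice. Its groups did not overlap (log2FC -2.66 ± 0.59), with 12 to 104 counts in the control mice and 3 to 15 in the HFD + MET mice.

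Of 23 antioxidant and glutathione genes tested, 7 were lower and 0 were higher, with a median log2FC of -0.24. Without control mouse 3, 3 were lower. Nfe2l2, which codes for the transcription factor NRF2 that controls the pathway, was measured at 65.6, 65.8, 73.7, and 61.9 CPM in the control mice and at 48.7, 44.9, 45.2, and 53.2 CPM in the HFD + MET mice. The groups did not overlap, with a log2FC of -0.48 ± 0.099. Gclc, a subunit of the rate-limiting enzyme of glutathione synthesis, was lower without overlap from 20.6 to 30.8 CPM to 18.6 to 20.4 CPM (log2FC -0.47 ± 0.13). Gsta3, a glutathione transferase, had a log2FC of -1.82 ± 0.63. Other NRF2 targets, Nqo1, Hmox1, and Txnrd1, had a log2FC of 0.00, -0.25, and 0.04.

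Slow fibre genes differed widely between mice of 1 group. Of 15 slow fibre genes, 6 were lower and 0 were higher, all 15 had a negative log2FC, and the median was -1.37. The slow troponin Tnnt1 was measured at 1.63, 59.6, 27.9, and 34.7 CPM in the control mice and at 4.95, 11.4, 5.96, and 4.28 CPM in the HFD + MET mice. Control mouse 1 was the lowest of the 8 mice, and the other control mice were the highest. The slow myosin Myh7 was at 2.81 CPM in control mouse 1 and 457 to 917 CPM in the other control mice, against 38.0 to 138 CPM in the HFD + MET mice (log2FC -2.63 ± 1.33, adjusted P = 0.564 in edgeR). Leaving out HFD + MET mouse 1 or 4 or control mouse 4, each alone, gave 1 lower slow fibre gene, leaving out HFD + MET mouse 3 or control mouse 2 gave 2, leaving out control mouse 3 gave 5, and leaving out control mouse 1 or HFD + MET mouse 2 gave 9. DESeq2 also called 9 lower. Of 16 fast fibre genes, 3 were higher and 0 were lower, among them the myosin-binding Mybpc2 with a log2FC of 0.53 ± 0.21. Without HFD + MET mouse 3, whose fast fibre sum was near that of control mouse 3, 10 were higher, and without control mouse 1, 11 were. Leaving out control mouse 2, control mouse 3, or HFD + MET mouse 4 gave 0, and leaving out HFD + MET mouse 1 or control mouse 4 gave 1. Which muscle or which part of it was taken from each mouse was not given, and its part in these values was not tested.

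Among 22 genes of AMPK, its upstream kinases, and its effectors, 2 were higher and 2 were lower with all mice, and 3 were higher and 4 lower without HFD + MET mouse 3. Prkag3, the regulatory subunit typical of fast fibres, was measured at 64.9, 36.1, 40.5, and 42.4 CPM in the control mice and at 110, 84.7, 39.9, and 111 CPM in the HFD + MET mice. Mouse 3 was inside the control range and the other 3 were above it (log2FC 0.91 ± 0.30). The catalytic subunits Prkaa1 and Prkaa2 had a log2FC of -0.05 ± 0.16 and 0.18 ± 0.15. Of 36 subunits of respiratory complex I, 1 was higher (Ndufc1, log2FC 0.31) and 1 was lower (Ndufa1, log2FC -0.32), and of 39 genes of complexes II to V, 0 were called in edgeR with all mice. Without HFD + MET mouse 2, 5 genes of complexes II to V were lower. The medians of these lists were -0.02 and -0.07. Of 9 transporters of metformin, 4 were tested and 0 were called. Of 21 genes of the ATF4 stress response, 4 were lower with all mice, 7 without HFD + MET mouse 3, and 2 without HFD + MET mouse 1, and the stress hormones Fgf21 and Gdf15 were below the filter with at most 0.260 and 0.195 CPM in the 8 mice.

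Genes of insulin action and fuel use differed in single members. Of 34 genes of insulin signalling and glucose uptake, 1 was higher and 3 were lower with all mice, 1 and 6 without HFD + MET mouse 3, and 0 and 2 without control mouse 2. Irs2, an adaptor of the insulin receptor, was measured at 128, 186, 184, and 119 CPM in the control mice and at 80.7, 68.9, 103, and 78.0 CPM in the HFD + MET mice, without overlap (log2FC -0.90 ± 0.23). Its paralogue Irs1 had a log2FC of 0.28 ± 0.17 and the glucose transporter Slc2a4 (GLUT4) of -0.08 ± 0.12. The glucose transporter Slc2a1 (GLUT1) was lower with a log2FC of -0.67. Socs1, an inhibitor of cytokine signalling, was at 0.364 to 0.708 CPM in the control mice, 0.262 to 1.10 CPM in the HFD + MET mice, and 1.3 to 6.57 CPM in the HFD mice. Its log2FC was 0.41 ± 0.53 for HFD + MET against control. Igfbp5, a binding protein of insulin-like growth factors, was higher with 167 to 248 CPM in the control mice and 227 to 623 CPM in the HFD + MET mice (log2FC 0.93 ± 0.25).

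Fatty acid oxidation showed 3 lower genes of 36, Acot1, Acot2, and Pdk4, which is 8.33% of the list against 9.5% of all genes. Pdk4, the kinase that blocks pyruvate oxidation, was at 4775, 5912, 3752, and 4364 CPM in the control mice and at 1781, 3152, 3072, and 3508 CPM in the HFD + MET mice, without overlap (log2FC -0.71 ± 0.26). Of 21 genes of branched-chain amino acid breakdown, 4 were lower, among them the dehydrogenase gene Ivd (log2FC -0.56 ± 0.16). Ppm1k, the phosphatase that activates the branched-chain keto acid dehydrogenase, had a log2FC of -0.66 ± 0.23, and Bckdha, a subunit gene of that dehydrogenase, of -0.38 ± 0.15. Leaving out HFD + MET mouse 3 gave 9 lower genes of fatty acid oxidation and 13 of branched-chain amino acid breakdown. Leaving out control mouse 2 gave 0 and 1. Calls over all genes were also more numerous without HFD + MET mouse 3. Of 32 glycolysis and glycogen genes, 2 were higher and 1 was lower with all mice, 11 were higher and 3 lower without HFD + MET mouse 3, and 0 were called without HFD + MET mouse 1 or 4.

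**Figure D5:**
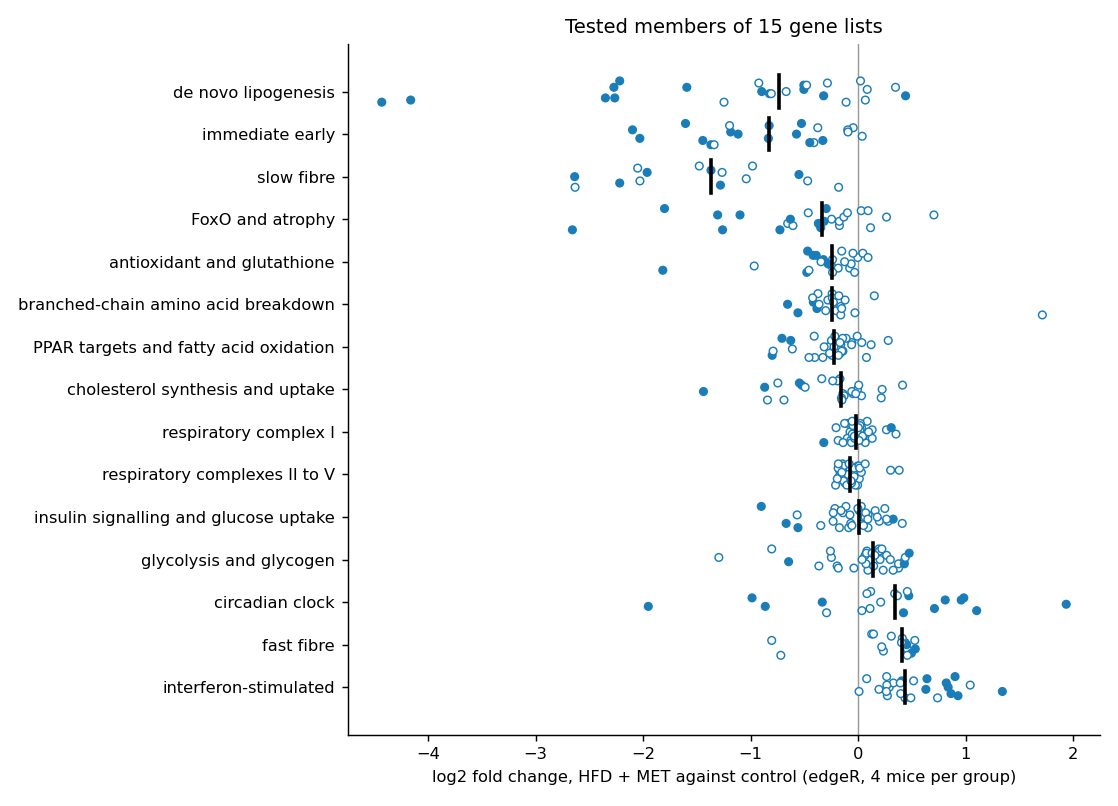
Log2FC of HFD + MET against control for each tested member of 15 gene lists. Filled points have an unadjusted P < 0.05 in edgeR, open points do not, and black lines are list medians. The lipogenic, immediate early, and slow fibre lists have medians of -0.74, -0.83, and -1.37, and the interferon list has a median of 0.44.

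Genes of the neuromuscular junction and of denervation had 2 higher and 3 lower members of 20. Ache, the acetylcholinesterase of the synapse, was measured at 16.2, 11.8, 9.62, and 13.3 CPM in the control mice and at 17.2, 29.0, 8.24, and 23.4 CPM in the HFD + MET mice. Mouse 3 was below the control range and the other 3 were above it (log2FC 0.62 ± 0.27). Rapsn, which clusters acetylcholine receptors, had a log2FC of 0.38 ± 0.14. Myog, a transcription factor that rises in denervated and regenerating fibres, had a log2FC of -1.17. Control mouse 4 was the highest of the 8 mice, with 13.1 CPM, and also in the embryonic myosin Myh3, with 16.4 CPM (log2FC -1.77 ± 0.75). Without that mouse the other control mice were at 2.13 to 4.46 CPM of Myog, and the HFD + MET mice at 1.31 to 4.23 CPM.

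Of the feedback genes of growth hormone signalling, the receptor gene Ghr was at 171 to 233 CPM in the control mice and 204 to 371 CPM in the HFD + MET mice (log2FC 0.38 ± 0.15), and the leptin receptor gene Lepr at 7.08 to 14.8 CPM and 5.17 to 7.92 CPM (log2FC -0.79 ± 0.31). The repressor Bcl6 was at 111, 112, 46.3, and 80.4 CPM in the HFD + MET mice, with mice 3 and 4 inside the control range of 36.1 to 84.3 CPM. Among the chaperones, Hspa1a, a stress-induced HSP70, was lower with a log2FC of -0.84 ± 0.35, its partner Dnajb1 with -0.58 ± 0.22, and Hspa5, the chaperone BiP of the endoplasmic reticulum, with -0.34 ± 0.13.

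The remaining counts of higher and lower genes follow. There were 3 and 2 of 28 for growth hormone and JAK-STAT feedback, 0 and 4 of 22 for heat shock proteins, and 0 and 2 of 10 for satellite cells and developmental myosin. Among the markers of other cells, 1 brown adipocyte gene of 10 was lower (Elovl3), 1 erythroid gene of 7 was higher (Bpgm), 1 endothelial gene of 12 was lower (Cldn5), and 1 Schwann cell gene of 14 was lower (Ncmap). All 14 Schwann cell genes and all 8 tendon genes had a negative log2FC, with medians of -0.82 and -0.85. All 7 erythroid genes had a positive log2FC, with a median of 0.52. The part of these cells in other values was not tested. No gene was called among 12 muscle fibre, 18 fibroblast, 8 tendon, 2 keratinocyte, 1 lymphocyte, and 2 retina genes tested. Several of these counts changed when 1 library was left out. Without HFD + MET mouse 3, 5 muscle fibre genes were higher, 6 brown adipocyte and 4 Schwann cell genes were lower, and the counts of higher and lower genes were 4 and 4 for growth hormone and JAK-STAT feedback, 3 and 3 for heat shock proteins, 2 and 1 for satellite cells, and 0 and 2 for endothelial cells and for transporters of metformin. Without control mouse 1, 4 muscle fibre genes were higher, and without HFD + MET mouse 1, 6 fibroblast genes were lower.

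Outside the lists, the genes that met the criteria of the study without overlap included Mef2c, a transcription factor of muscle differentiation. It was measured at 136, 180, 82.0, and 181 CPM in the control mice and at 393, 279, 260, and 239 CPM in the HFD + MET mice (log2FC 1.02 ± 0.27). All HFD + MET mice were above all control mice, and the HFD mice were between 340 and 541 CPM. Atpaf1, an assembly factor of ATP synthase, was higher from 5.41 to 12.0 CPM to 20.2 to 26.8 CPM (log2FC 1.55 ± 0.35). Dact2, a modulator of Wnt and TGF-beta signals, had a log2FC of 1.26. Exoc3l2 and Ifit3b had a log2FC of 1.05 and 1.00. Svip, an inhibitor of protein degradation at the endoplasmic reticulum, was at 20.2 CPM in HFD + MET mouse 3 and 5.62 to 6.72 CPM in the other HFD + MET mice, against 2.91 to 5.34 CPM in the control mice. Its log2FC was 1.14 with all mice and 0.47 without mouse 3. Of the lower genes, Mpzl2, an adhesion protein of epithelia, had a log2FC of -2.32 ± 0.64 and Tmem82 of -1.90 ± 0.36.

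No lncRNA passed an adjusted P < 0.05 of the 17599 tested (0% of the lncRNAs). The smallest adjusted P of edgeR was 0.0722, and 1756 lncRNAs (9.98%) had an unadjusted P < 0.05. With the criteria of the study, 296 were higher (1.68%) and 207 were lower (1.18%), 2.86% in all. DESeq2 called 127 lncRNAs at an adjusted P < 0.05, and edgeR called 60 without HFD + MET mouse 3 and 0 without mouse 3 of both groups. Groups did not overlap in 891 lncRNAs (5.06%). Most lncRNAs carried few counts, and the coefficient of variation between mice was 41.3%, against 26.1% for genes.

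The 2 lncRNAs with the smallest adjusted P both lay in introns of protein-coding genes and were higher. NONMMUT011502.2 (chr11:90525927-90529689, GRCm38, in an intron of Stxbp4) was measured at 6.25, 6.60, 6.98, and 10.01 CPM in the control mice and at 23.4, 21.2, 17.3, and 19.9 CPM in the HFD + MET mice. NONMMUT019242.2 (chr13:109583992-109584445, in an intron of Pde4d, a phosphodiesterase of cAMP) was at 4.41, 3.50, 4.40, and 5.18 CPM and at 19.1, 12.6, 10.2, and 18.4 CPM. All HFD + MET mice were above all control mice in both, with a log2FC of 1.45 ± 0.22 and 1.78 ± 0.27. The HFD mice were higher still, at 24.2 to 39.2 CPM and 34.1 to 49.3 CPM. For HFD + MET against HFD, the log2FC was -0.73 ± 0.21 and -1.46 ± 0.25, with an adjusted P of 0.570 and 0.165 in edgeR. The genes around them, Stxbp4 and Pde4d, had a log2FC of 0.32 and -0.07 for HFD + MET against control. The adjusted P of both lncRNAs ranged from 6.15e-05 to 0.229 over the settings tried.

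Some genes held several lncRNAs that met the criteria in 1 direction. In the span of Jph1, which joins the sarcoplasmic reticulum to the T-tubule, 7 of 9 tested lncRNAs were higher, and the gene itself had a log2FC of 0.38. In Stxbp4, 5 of 6 were higher, in Adamtsl1, 6 of 10, and in Pde4d, 4 of 31. In Arntl, 2 of 3 were lower, as was the gene. In Atg12, 2 of 5 were lower, while the gene was higher with a log2FC of 0.67. The lncRNA table gives no strand, so reads of an lncRNA inside a gene and of the gene's unspliced RNA cannot be told apart, and lncRNAs of 1 gene may share reads. Of the lncRNAs inside introns of coding genes, 85 of 6828 were higher and 61 were lower, 2.14% in all. Of those outside coding genes, 112 of 5083 were higher and 63 lower (3.44%). Of those whose span overlapped a coding exon, 99 of 5688 were higher and 83 lower (3.2%). A span runs from the first to the last base of an lncRNA with its introns, so the exons of the lncRNA itself may not overlap. The 115 lncRNAs assembled by the authors had 9 higher and 1 lower member (8.7%), against 2.84% of NONCODE and 2.68% of Ensembl lncRNAs.

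The lncRNAs with the largest log2FC were present in some mice and near 0 in others. ENSMUST00000136322 of the lincRNA C030014I23Rik (chr9:44478778-44482180) had 11, 26, 10, and 19 counts in the control mice and 0 in all HFD + MET mice, at least 22.5-fold lower against a floor of 3 counts over the group. NONMMUT029505.2, whose span overlaps an exon of Prr3 (chr17:35969927-35974042), had 8, 9, 9, and 16 counts and 0 in all HFD + MET mice, at least 14.3-fold lower. NONMMUT017544.2 (chr13:52729370-52735605), whose span overlaps the lincRNA BB123696, had 0 counts in all control mice and 5, 16, 15, and 7 in the HFD + MET mice, at least 14-fold higher. The HFD mice had 0, 11, 8, and 0 counts of it. NONMMUT036927.2, within an exon of Rc3h2 (chr2:37370075-37371639), had 1 count in each control mouse and 1, 5, 529, and 822 in HFD + MET mice 1 to 4, so that 2 mice carried nearly all its reads. NONMMUT144034.1 (chr15:68339095-68354979) had 68 to 153 counts in the control mice, 1, 1, 0, and 0 in the HFD + MET mice, and 144, 158, 0, and 84 in the HFD mice. How reads were shared between overlapping transcripts was decided by the counting, and its part in these values was not tested.

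NONMMUT089907.1 (chr13:55186264-55187796, outside annotated genes) was lower with 35, 153, 150, and 29 counts in the control mice and 1, 1, 16, and 4 in the HFD + MET mice (log2FC -3.96 ± 0.78), and NONMMUT153501.1 (chr9:115515209-115516033) with 12, 22, 82, and 10 counts and 0, 0, 4, and 0. Mouse 3 was the highest HFD + MET mouse in both. NONMMUT093203.1, whose span overlaps an exon of Chmp7 (chr14:69728512-69767114), had 1, 3, 2, and 2 counts in the control mice and 3, 65, 60, and 44 in the HFD + MET mice. NONMMUT001147.2, within an exon of Raph1 (chr1:60520814-60522291), had 4 to 7 counts and 5, 76, 59, and 8.

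Values follow for lncRNAs that the study also measured by RT-qPCR. NONMMUT044897.2, which overlaps an exon of the phosphatase gene Cdc14a, was at 43.8 to 57.7 CPM in the control mice and at 94.3, 27.0, 49.4, and 23.0 CPM in the HFD + MET mice, with a log2FC of -0.03 ± 0.37. The HFD mice were between 82.9 and 174 CPM, above all control mice. NONMMUT005295.2, which overlaps an exon of Traf3ip2, was at 28.7 to 40.2 CPM in the control mice, 93.5, 20.2, 63.3, and 33.2 CPM in the HFD + MET mice, and 84.4 to 132 CPM in the HFD mice. The HFD + MET mice overlapped with both groups (log2FC 0.64 ± 0.37 against control). NONMMUT128951.1 was at 0.735 to 6.18 CPM in the control mice, 0, 3.03, 4.58, and 0.478 CPM in the HFD + MET mice, and at most 0.300 CPM in the HFD mice. NONMMUT145909.1 was below the filter, with 3 to 53 counts in the control mice and 3 to 14 in the HFD + MET mice.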

How the data were processed

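Total RNA of skeletal muscle was depleted of ribosomal RNA and sequenced from 16 mice, 4 in each of 4 groups, which were assigned from the treatment labels. Per the labels and the methods of the study, the authors trimmed reads with fastp, aligned them to GRCm38 with HISAT2, assembled and quantified transcripts, and deposited counts and FPKM per transcript. The deposited FPKM columns were not used here. The estimated counts, whole numbers as deposited by the authors, were summed per gene name for mRNAs and kept per transcript for lncRNAs.

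edgeR 4.0.16 (R 4.3.3, limma 3.58.1) was run on each table with TMM scaling, a filter on low counts (minimum count 10, minimum total 15), and robust quasi-likelihood fits over all 16 mice, which share 1 estimate of the spread, including the HFD and HFD + RSV (resveratrol) mice. The contrast was HFD + MET minus control, with Benjamini-Hochberg adjustment over all features. "Rose" and "fell" mark an adjusted P < 0.05. P-values measure the spread between these mice. Intervals were not given for counts, and totals set the depth. The coordinates of 7142 of 7209 Ensembl lncRNAs matched by ID (99.1%) equalled those of GRCm38.

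Gene lists and members were chosen with earlier results of these data known. The rule for named genes asked for an adjusted P < 0.05 and found none, so features were named by added rules, chosen after their values were seen. These were the 12 genes and 5 lncRNAs in each direction with the largest log2FC among those that met the criteria of the study without overlap, at a mean of at least 1 CPM (9 genes qualified upwards and 38 downwards, and unnamed models were left out), the smallest adjusted P, and members of each list by P. Genes that the study followed up and list members with no call were also named. Alternatives were DESeq2 1.42.0, other scalings and filters, a model of the 8 mice alone, and leaving out each mouse. Some genes that these rules name are not reported here.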

Additional observations from a re-analysis of the deposited data

Results flagged for a closer look

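In 15 of 236 groups of 4 mice tested, the highest or lowest mouse stood apart from the other 3 by more than Dixon's 95% critical value on log2(CPM + 0.5), where chance gives about 1 in 20. The value given is the gap to the nearest mouse as a share of the range. In HFD + MET mouse 3, Elovl6 (0.936), Svip (0.864), Ivd (0.874), and NONMMUT153501.1 (1) were apart on the high side and the tropomyosin gene Tpm1 (0.858) on the low side. In the other HFD + MET mice, Dact2 was high in mouse 1 (0.851), Fosb was low in mouse 2 (0.987), and Nr4a3 (0.874) and the calcium pump gene Atp2a2 (0.832) were low in mouse 4. In control mouse 1, the fast myosin gene Myh4 (0.903), Igfbp5 (0.866), and the phosphorylase kinase gene Phka1 (0.928) were high. In control mouse 3, Slc2a4 was low (0.85) and NONMMUT153501.1 high (0.858), and in control mouse 4 the collagen gene Col15a1 was high (0.881). The causes were not tested.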

How the results depend on the processing

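At an adjusted P < 0.05, no gene was called by edgeR with all mice, 146 were called by DESeq2, and the range over leaving out 1 mouse was 0 to 180, with 180 without HFD + MET mouse 3 and 7 without control mouse 4. Leaving out mouse 3 of both groups, a setting chosen after seeing the data, gave 38 genes. With the criteria of the study, the 250 genes became 388 with DESeq2 and 611 without the filter, and 205 to 541 over leaving out 1 mouse, with 541 without HFD + MET mouse 3. For lncRNAs at an adjusted P < 0.05, the count of 0 became 127 with DESeq2, 1 in a model of the 8 mice alone, 5 with library size only, and 4 without the filter, and 0 to 60 over leaving out 1 mouse, with 60 without HFD + MET mouse 3, 4 without control mouse 1, 3 without control mouse 4, and 1 without control mouse 2. With the criteria of the study, the 503 lncRNAs became 316 with the 8 mice alone, 1082 with DESeq2, 2287 without the filter, and 1021 with a minimum of 1 CPM in 4 mice, and 523 to 794 over leaving out 1 mouse, with 794 without HFD + MET mouse 3. The cause of these shifts was not tested.

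Values near 0 turned in direction. The log2FC of the keratinocyte gene Trp63 was 0.0996 without control mouse 1 and 0.0284 without HFD + MET mouse 1, against -0.147 without HFD + MET mouse 3, and that of the cytokine inhibitor Socs2 0.00846 without HFD + MET mouse 1 and 0.0573 without control mouse 2, against -0.504 at the other end without HFD + MET mouse 4. Slc2a4 had 0.0241 without HFD + MET mouse 3 and -0.155 without HFD + MET mouse 2. NONMMUT044897.2 had 0.145 and 0.199 without HFD + MET mouse 2 and 4, 0.0492 without control mouse 3, -0.576 without HFD + MET mouse 1, and 0.0225 without mouse 3 of both groups. The other values of named features and lists kept their direction or are given beside the result. No scaling moved the median of all genes by more than 0.1. No paired analysis was run, because the meaning of the numbers in the mouse labels was not given. If they mark a cage or a batch, it could not be told apart from the group in HFD + MET against control. Most lncRNAs carried too few counts for small differences to be detectable at this depth.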
